A study of Mus musculus with 3 samples.

Results

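The liver makes most of the soluble proteins of blood plasma, and 38 genes listed for such proteins and for the clotting cascade were followed across the primordia of 3 gut organs (esophagus, stomach and intestine) from ICR mice at E11.5. The genes were chosen from earlier results of these same arrays, so their differences between organs are given as a description. Of the 38 listed genes, 37 had a probe that could be named, through 42 probes, among 16998 named genes on the array. Ahsp, a chaperone of alpha hemoglobin in red cells and not a plasma protein, was on the list but was matched to no probe and was not analysed here.

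Total RNA was isolated from each primordium, amplified, labelled with Cy3 and hybridised to 1-colour Agilent arrays. Each organ was represented by 1 array. With that number of arrays no difference could be checked against replicates, which limits precision throughout. The labels give the strain and the embryonic age for all 3 samples, and do not say how many embryos went into a sample. The text on dissection speaks of stomach for every sample, so each organ was taken from the tissue label. In whole primordia a lower signal can come from fewer cells of a type or from less RNA per cell, and these cannot be told apart.

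The level given for a gene is the log2 processed signal relative to its array's 75th percentile, so 0 is the level of a fairly bright spot on that array. That percentile was a signal of 393, 334 and 1023 in esophagus, stomach and intestine. A probe is called well above background by the scanner software's flag, which held for 69.3% of esophagus spots, 67.9% of stomach spots and 74.0% of intestine spots. Where only 1 array of a pair measured a gene, the difference is a bound against the dim array's floor and is given as a least fold. Errors after ± are the scanner software's own error of a spot, carried to the difference, and hold no spread between embryos. As a wider measure, different probes of the same gene had a median SD of 0.25 log2 units for stomach minus esophagus, 0.46 for intestine minus esophagus and 0.31 for intestine minus stomach.

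Hepatocytes secrete albumin and other carriers that move hormones, vitamins, iron and heme, together with the inactive precursors of the clotting proteases. When clotting starts, these precursors cut one another in turn until thrombin converts fibrinogen to fibrin, while serpins such as antithrombin hold the proteases back and plasmin dissolves the clot. The visceral endoderm of the yolk sac makes several of the same proteins in the embryo before and while the liver forms. In the mouse the liver bud grows out of the foregut endoderm next to the future duodenum.

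Promoters are shown for a few of the listed genes, picked by name and not drawn as a sample. The 250 bases before the annotated start of 6 genes are printed 5′ to 3′ on the gene's strand, from RefSeq on build GRCm38.p6. Capitals mark GTTAAT or, on the other strand, ATTAAC, the half-site of the consensus of HNF1 factors. Alb and Afp are neighbours of the albumin family, Fgb codes for a fibrinogen chain and Vtn for vitronectin. Ahsg and Hrg lie near each other but had different patterns across the organs, and neither window holds the half-site. Of 30 listed genes with a promoter, 9 held it, so the 6 printed do not give its share.
Alb, chr5:90460620-90460869, plus strand: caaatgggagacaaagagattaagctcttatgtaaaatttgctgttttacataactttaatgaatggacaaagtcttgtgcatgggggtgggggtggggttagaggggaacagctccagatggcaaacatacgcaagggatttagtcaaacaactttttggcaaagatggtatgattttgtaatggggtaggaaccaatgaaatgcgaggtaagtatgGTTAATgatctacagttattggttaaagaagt
Afp, chr5:90490464-90490713, plus strand: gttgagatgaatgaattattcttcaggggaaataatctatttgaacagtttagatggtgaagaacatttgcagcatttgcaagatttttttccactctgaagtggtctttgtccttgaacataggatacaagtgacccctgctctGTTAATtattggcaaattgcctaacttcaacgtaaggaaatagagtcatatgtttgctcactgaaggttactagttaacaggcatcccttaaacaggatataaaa
Fgb, chr3:83049864-83050113, minus strand: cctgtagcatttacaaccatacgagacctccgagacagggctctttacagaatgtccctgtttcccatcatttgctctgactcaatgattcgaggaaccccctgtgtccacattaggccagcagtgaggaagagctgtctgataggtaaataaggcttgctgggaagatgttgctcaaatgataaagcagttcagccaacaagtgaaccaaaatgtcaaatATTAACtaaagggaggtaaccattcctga
Vtn, chr11:78498870-78499119, plus strand: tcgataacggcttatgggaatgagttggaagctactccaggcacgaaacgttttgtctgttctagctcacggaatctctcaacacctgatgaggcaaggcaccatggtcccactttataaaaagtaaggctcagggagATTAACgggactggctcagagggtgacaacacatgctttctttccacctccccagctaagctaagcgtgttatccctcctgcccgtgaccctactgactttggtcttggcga
Ahsg, chr16:22891765-22892014, plus strand: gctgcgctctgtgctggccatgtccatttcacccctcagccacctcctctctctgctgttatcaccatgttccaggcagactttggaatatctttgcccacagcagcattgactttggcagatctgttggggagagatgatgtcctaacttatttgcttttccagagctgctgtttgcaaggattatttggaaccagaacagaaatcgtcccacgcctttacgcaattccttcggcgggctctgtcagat
Hrg, chr16:22950822-22951071, plus strand: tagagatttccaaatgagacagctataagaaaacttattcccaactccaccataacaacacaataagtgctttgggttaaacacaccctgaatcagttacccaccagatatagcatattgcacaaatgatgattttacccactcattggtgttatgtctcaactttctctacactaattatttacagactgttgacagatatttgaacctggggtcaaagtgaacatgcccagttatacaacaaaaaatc

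Most of the genes had their highest signal in intestine. In intestine 36 of the 37 genes were well above background, against 29 in esophagus and 26 in stomach. Of 35 genes that could be compared, 26 were at least 4-fold above esophagus in intestine, against 1.82% of all genes, and 1 was at least 4-fold below, against 3.85%. Of 34 genes, 26 were at least 4-fold above stomach in intestine, against 1.43% of all genes, and 0 were at least 4-fold below, against 1.29%. The median difference was 2.62 log2 units over esophagus and 3.11 over stomach, where that of all genes was 0.13 and −0.02. Since these genes were chosen for this pattern, nothing is read from those shares. With normexp correction of the background, 13 listed genes passed 4-fold in each of these comparisons and the medians were 1.48 and 1.65. Of all 13343 genes compared with esophagus under normexp, 93 passed 4-fold upward in intestine and 215 downward. Of all 13416 compared with stomach, 50 passed upward and 61 downward. The medians of all genes were then 0.003 and −0.098. Nothing is read from that contrast either, for the same reason. Dim genes did not all differ less under that correction. Intestine minus esophagus went from −0.12 to −0.96 log2 units for F5 and from 0.35 to −0.90 for F7.

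The 25 genes that intestine held at least 4-fold above each other organ were 11 carriers, the 3 fibrinogen chains, 3 clotting factors, 5 inhibitors or fibrinolysis genes, 2 inter-alpha-trypsin heavy chains and vitronectin. Of all genes compared, 1.02% met that criterion. The 9 genes that were compared in both and did not meet it were Hp, F5, F7, F9, F10, Serpinc1, Hrg, Itih1 and C3. Serpinc1 is among the 9 by its brighter probe, and its other probe was higher in intestine by 3.21 log2 units over esophagus and 4.56 over stomach, which would meet the criterion. With normexp correction 12 of the 25 genes (Alb, Afp, Trf, Ahsg, Ambp, Rbp4, Serpina6, Fgb, Fgg, F2, Serpinf2 and Vtn) were still at least 4-fold above both other organs.

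**Figure D1:**
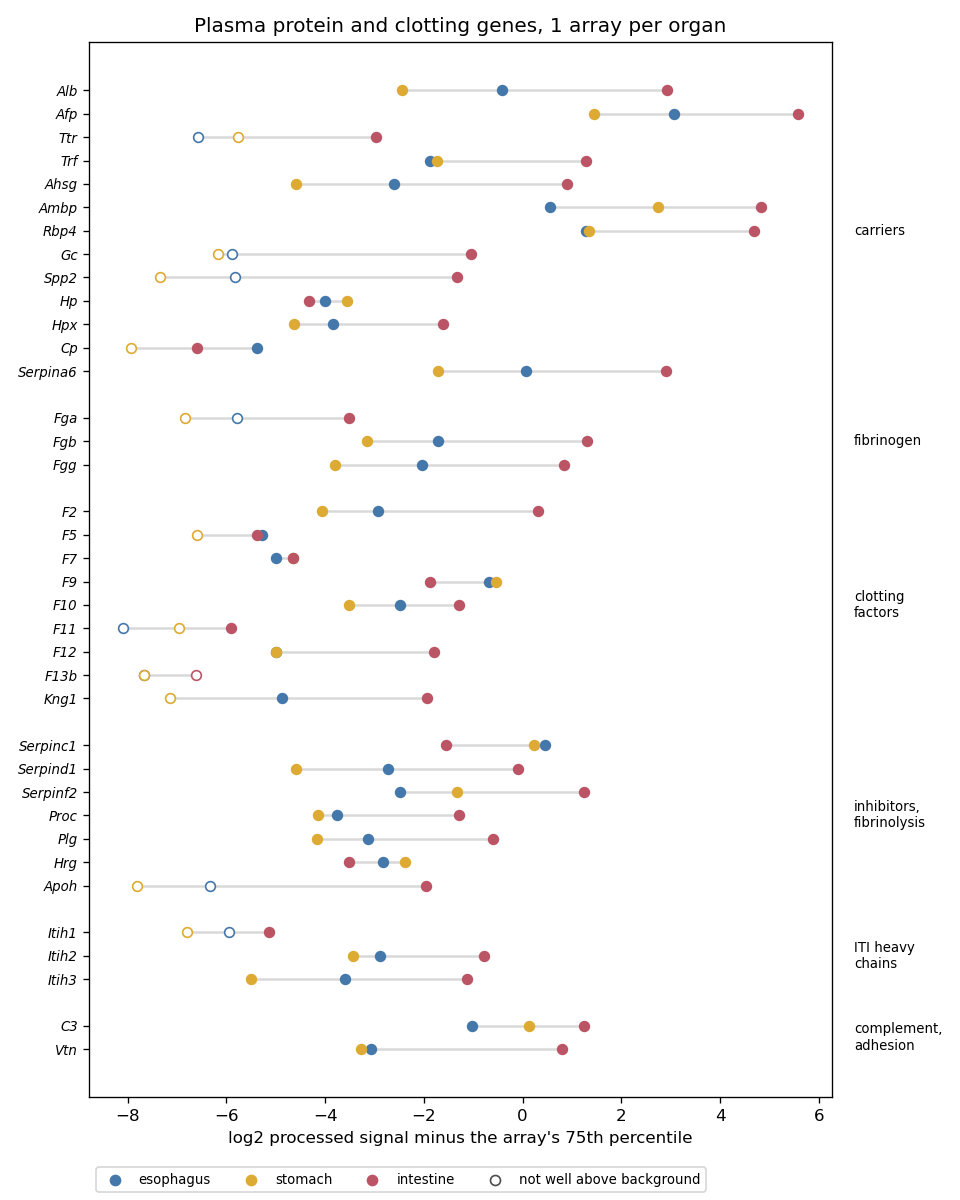
Level of each gene in the 3 organs, as log2 processed signal relative to the 75th percentile of its array, with 1 point per array and open points where the probe was not well above background. The intestine point lies farthest to the right for most genes, whereas Hp, F9, Hrg and Serpinc1 have it farthest to the left.

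Between the anterior organs the differences were smaller and went both ways. Of 29 genes, 1 (Ambp) was at least 4-fold above esophagus in stomach, against 0.684% of all genes, and 1 (Alb) was at least 4-fold below, against 1.58%. Alb was no longer past 4-fold with normexp correction, median centring or quantile normalization. At least 2-fold lower in stomach were 11 of the 29 genes and at least 2-fold higher were 3. Of all 13737 genes compared, 784 were at least 2-fold lower and 569 at least 2-fold higher. The median of the listed genes was −0.56 log2 units, where that of all genes was 0.15. With normexp correction the median was −0.0501. Of the 26 genes well above background on all 3 arrays, 16 had the order intestine, esophagus, stomach from high to low, an order found in 9.97% of 12864 such genes. Among these 16, F12 differed between esophagus and stomach by only −0.01 and Vtn by −0.21, less than the spread between probes. With normexp correction 12 of the 16 kept the order, while Hpx, F12, Proc and Vtn had stomach slightly above esophagus. A further 5 genes (Trf, Ambp, Rbp4, Serpinf2 and C3) had stomach above esophagus and intestine above both. The comparisons share arrays, so their values for a gene are not independent of each other.

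Among the carriers, Alb, the most abundant protein of plasma, read −0.42 in esophagus, −2.45 in stomach and 2.93 in intestine. Intestine was 41.7-fold above stomach (5.38 ± 0.21 log2 units) and 10.2-fold above esophagus, and the stomach was 4.09-fold below esophagus. Afp, the fetal counterpart of albumin, read 3.06, 1.45 and 5.58 in the same order of organs. It followed the order of Alb over a narrower range, with intestine 17.5-fold above stomach and 5.72-fold above esophagus. Ahsg, or fetuin-A, which keeps calcium phosphate in solution, read −2.61, −4.59 and 0.91. Its difference of 45.3-fold between intestine and stomach (5.50 ± 0.26) was the largest measured among the 37 genes. Serpina6, the corticosteroid-binding globulin, read 0.07, −1.72 and 2.90, and intestine was 24.6-fold above stomach.

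Other carriers did not have stomach lowest. Ambp, the precursor of alpha-1-microglobulin and bikunin, read 0.56 in esophagus, 2.75 in stomach and 4.83 in intestine. Its stomach was 4.58-fold above esophagus (2.20 ± 0.20), and the gap between intestine and stomach was 4.21-fold. Rbp4, the retinol carrier of plasma, read 1.28, 1.35 and 4.68. Trf, the iron carrier transferrin, read −1.88, −1.74 and 1.28. For Rbp4 and Trf the esophagus and stomach differed by 0.07 and 0.13 log2 units, less than the spread between probes, while intestine was 10.1-fold and 8.10-fold above stomach. Hpx, the heme carrier hemopexin, read −3.84, −4.62 and −1.61, with intestine 8.06-fold above stomach. That difference of 3.01 log2 units was 0.85 with normexp correction.

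For 3 carriers the probe was well above background in intestine and in no other organ. Gc, the vitamin D binding protein and a relative of albumin, read −1.05 in intestine and was at least 27.5-fold above stomach and at least 26.9-fold above esophagus. Spp2, a secreted phosphoprotein, read −1.32 in intestine and was at least 22.8-fold above stomach. Ttr, transthyretin, the carrier of thyroid hormone and of the Rbp4 protein, read −2.97 in intestine and was at least 6.95-fold above stomach. These bounds depend on the background correction. With normexp Gc stood at 2.06 log2 units over esophagus and 1.82 over stomach, Spp2 at 1.48 and 1.36, and Ttr at 0.15 over esophagus with no fold over stomach. Alb, Afp and Gc are members of one family, and Alb and Afp are next to each other on chromosome 5. All 3 were among the 25 genes.

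The acute-phase carriers haptoglobin and ceruloplasmin stood outside that pattern. Hp, which binds free hemoglobin, read −4.01 in esophagus, −3.56 in stomach and −4.33 in intestine. All 3 organs lay within 2-fold of each other. Intestine read lowest, but against esophagus the sign turned to 0.18 with median centring and 0.21 with quantile normalization. With normexp correction intestine stood at −0.82 against esophagus and at −1.15 against stomach, the latter past 2-fold. Cp, the copper carrier, read −5.39 in esophagus and −6.59 in intestine, near the floor of both arrays, and was not well above background in stomach.

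Fibrinogen is assembled from 3 chains whose genes, Fgg, Fga and Fgb, follow one another on chromosome 3 with no coding gene between. Fgb read −1.71 in esophagus, −3.14 in stomach and 1.30 in intestine, and Fgg read −2.05, −3.80 and 0.84. Both had intestine highest and stomach lowest, with intestine 21.7-fold and 25.1-fold above stomach and stomach 2.70-fold and 3.38-fold below esophagus. Fga was well above background in intestine only, at −3.52, which is at least 4.98-fold above stomach, and with normexp correction it gave no fold over either organ. Levels of different probes cannot be set against each other on these arrays, so the dim Fga probe says nothing about the proportions of the 3 chains.

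Clotting factors, counting kininogen, were divided. F2, which codes for prothrombin, read −2.93 in esophagus, −4.07 in stomach and 0.31 in intestine, and intestine was 20.8-fold above stomach (4.38 ± 0.23). F12, the factor that starts the contact pathway, read −5.00, −5.01 and −1.80, so that the anterior organs lay close together and intestine was 9.24-fold above stomach. That difference of 3.21 log2 units was 0.92 with normexp correction. Kng1, kininogen, the cofactor of that pathway and precursor of bradykinin, read −4.87 in esophagus and −1.94 in intestine. In stomach it was not well above background. Its other probe, well above background in intestine only, gave bounds under 4-fold, 1.23 log2 units over esophagus and 1.26 over stomach. With normexp correction the probe used gave 0.86 and 0.83. F10, the protease that cuts prothrombin, read −2.48, −3.53 and −1.30. It had the same order as F2 over a smaller range, with intestine 4.69-fold above stomach and 2.27-fold above esophagus.

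The remaining clotting factors did not have intestine clearly highest. F7, the protease that tissue factor activates, read −5.01, −4.65 and −4.66, and the 3 organs lay within 0.36 log2 units of each other. With normexp correction intestine was below esophagus (−0.90 log2 units) and below stomach (−1.07). F7 and F10 lie side by side on chromosome 8. F9, deficient in hemophilia B, read −0.68, −0.53 and −1.88, with intestine 2.55-fold below stomach and 2.31-fold below esophagus. The other probe of F9 was not well above background on any array, so the pattern rests on 1 probe. F5, the cofactor of the protease F10, read −5.27 in esophagus and −5.39 in intestine, and was not well above background in stomach. F11 was well above background in intestine only, at −5.90, too dim to give a fold over the other floors, and F13b, a subunit of the factor that cross-links fibrin, was well above background nowhere.

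Among the inhibitors, Serpind1, heparin cofactor II, read −2.72 in esophagus, −4.60 in stomach and −0.10 in intestine, and intestine was 22.6-fold above stomach. Serpinf2, the main inhibitor of plasmin, read −2.49, −1.32 and 1.24. Like Ambp it had stomach above esophagus, by 2.24-fold, and intestine 5.90-fold above stomach. Proc, the precursor of anticoagulant protein C, read −3.76, −4.16 and −1.30, and intestine was 7.26-fold above stomach. That difference of 2.86 log2 units was 1.21 with normexp correction. Plg, the precursor of plasmin, read −3.14, −4.17 and −0.60, and its intestine was 11.8-fold above stomach. The other probe of Plg gave 3.84 log2 units for that difference, against 3.56. With normexp correction the probe used for Plg gave 1.92. Apoh, a phospholipid-binding plasma protein, was well above background in intestine only and at least 14.8-fold above stomach, a difference of 3.89 log2 units that was 0.95 with normexp correction.

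Serpinc1, which codes for antithrombin, the inhibitor of thrombin and of the protease F10, gave opposite patterns by its 2 probes. The brighter probe, used here by rule, read 0.46 in esophagus, 0.23 in stomach and −1.55 in intestine, and was the 1 gene whose intestine lay at least 4-fold below esophagus (4.02-fold). The other probe read −2.84, −4.20 and 0.36, so that intestine was higher than esophagus by 3.21 log2 units and higher than stomach by 4.56. Both probes carry the same transcript accession and were well above background on all 3 arrays. The direction for Serpinc1 is therefore not settled by these arrays. Hrg, a histidine-rich glycoprotein that binds heparin and plasminogen, read −2.83, −2.39 and −3.52. Intestine was lowest for Hrg, 2.19-fold below stomach, although Ahsg and Kng1, each with 1 coding gene between it and Hrg on chromosome 16, were higher in intestine.

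**Figure D2:**
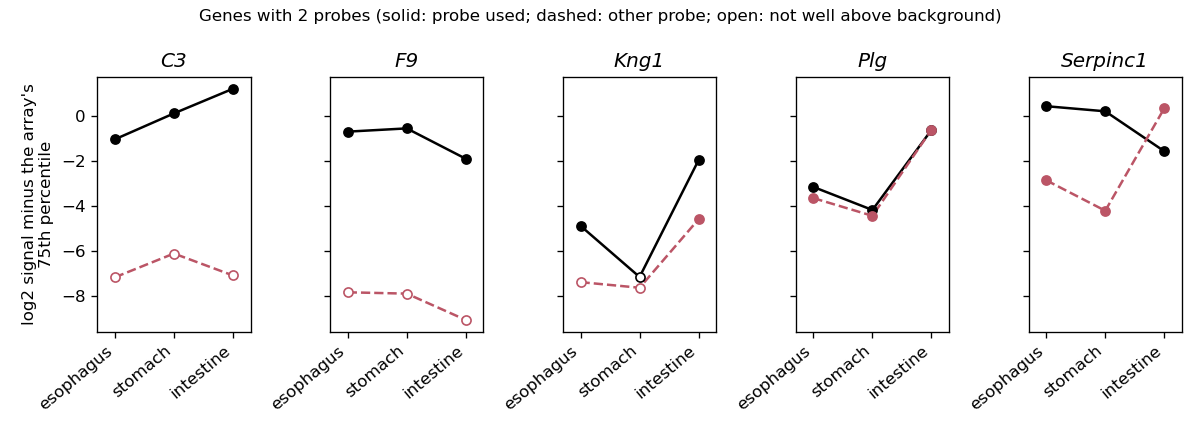
Log2 signal relative to the array's 75th percentile in esophagus, stomach and intestine for the 5 genes with 2 probes, the probe used as a solid line, the other as a dashed line, and open points not well above background. The 2 probes of Plg nearly overlie, those of Serpinc1 cross, and the other probes of C3 and F9 are dim on every array.

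The heavy chains of the inter-alpha-trypsin inhibitor attach to hyaluronan and are joined to bikunin, a product of Ambp. Itih3 read −3.60 in esophagus, −5.50 in stomach and −1.13 in intestine, with intestine 20.7-fold above stomach (4.37 ± 0.35). Its stomach signal of 7.39 lay near the floor of 5.85, and the difference was 1.48 with normexp correction. Itih2 read −2.88, −3.44 and −0.78, with intestine 6.33-fold above stomach, a difference of 2.66 log2 units that was 1.44 with normexp correction. Itih1, the direct neighbour of Itih3 on chromosome 14, was well above background in intestine only, at −5.13, and its bound over stomach was 1.63-fold. Vtn, an adhesion protein of plasma and matrix, read −3.07, −3.28 and 0.81, and intestine was 17.0-fold above stomach. C3, the central protein of complement, read −1.02, 0.14 and 1.23, so that stomach was 2.23-fold above esophagus and intestine 2.14-fold above stomach, and its other probe was not well above background.

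**Figure D3:**
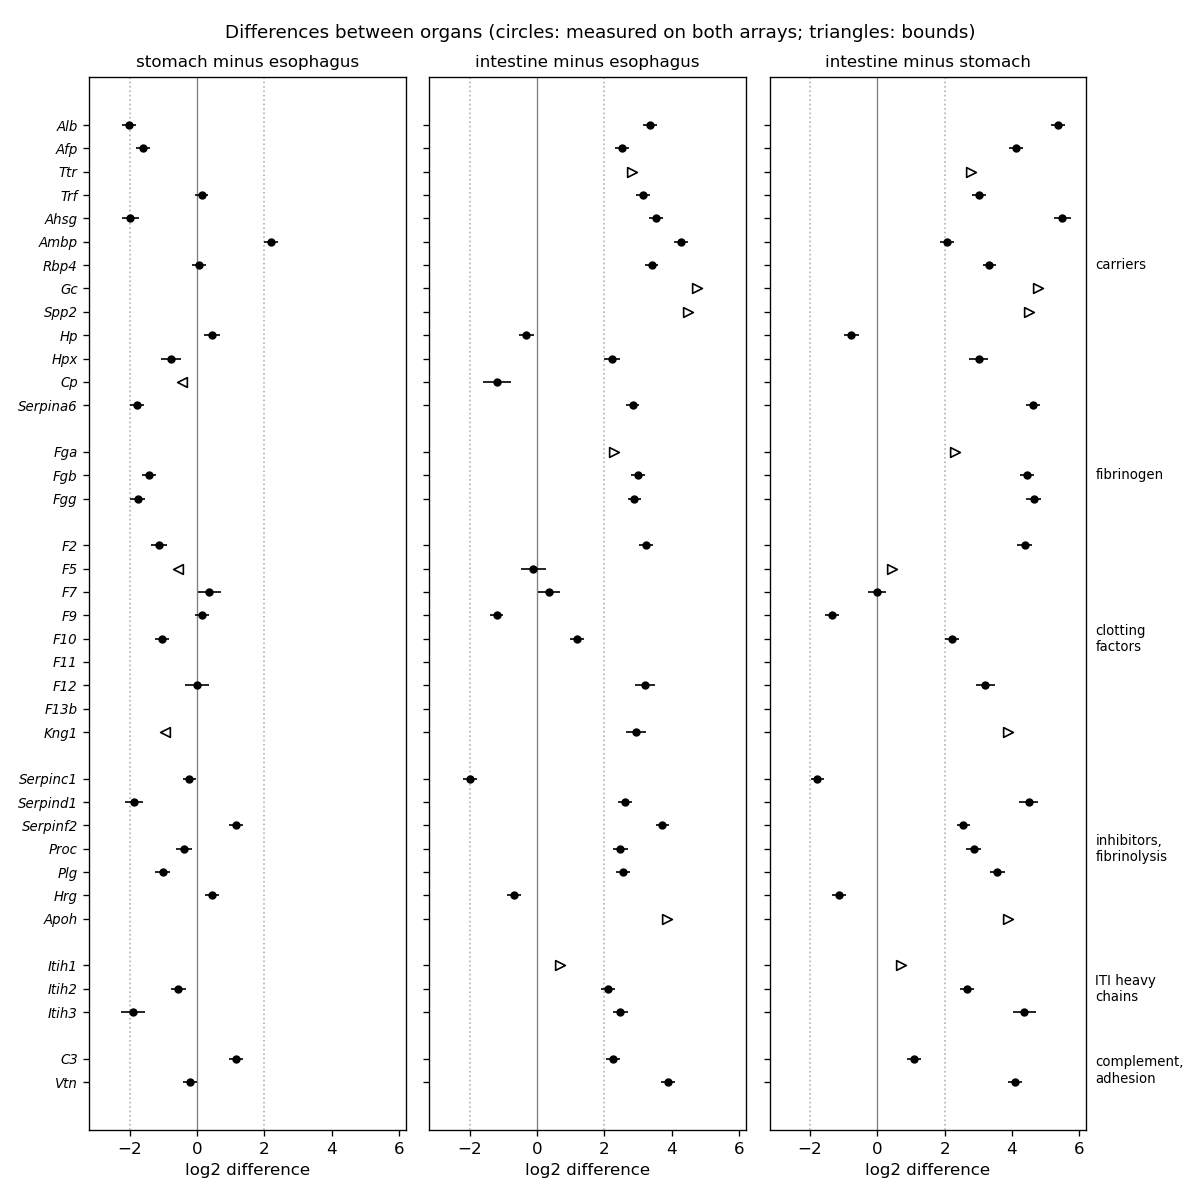
Log2 differences of each gene for stomach minus esophagus, intestine minus esophagus and intestine minus stomach, with circles for genes measured on both arrays (bars: scanner error) and triangles for bounds that point away from 0. Dotted lines mark 4-fold. Only Ambp and Alb pass them in the left panel, while 26 genes lie beyond the right line in each of the others.

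The genes did not share one ratio between organs. Over the 26 genes measured on all 3 arrays, the SD of intestine minus stomach was 2.13 log2 units and of stomach minus esophagus 1.12. For all genes measured on all 3 arrays it was 0.69 and 0.66. The listed genes were chosen for their values on these arrays, so nothing is read from that contrast. The SD of 2.13 includes Serpinc1 by its brighter probe (−1.78), where its other probe gave 4.56. The lower and upper quartiles of the differences between intestine and stomach were 2.11 and 4.38. Alb, Ahsg, Serpina6, Fgg, Serpind1, Fgb, F2, Itih3 and Afp each stood above 4 log2 units there and at least 2-fold lower in stomach than in esophagus, whereas Vtn stood at 4.09 with esophagus and stomach close together. With normexp correction only 3 of these 9 (Alb, Afp and Serpina6) were still at least 2-fold lower in stomach than in esophagus, and the other 6 lay between −0.67 and −0.17 log2 units.

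Other genes of the same pathways came from lists drawn up by function, whereas the 37 genes were chosen for their values on these arrays, so the sizes of their differences are not compared. Of 22 genes compared on a list of complement and other plasma proteins, 3 were at least 4-fold above stomach in intestine and 0 below, with a median of 0.74 log2 units. Cfb, complement factor B, stood at 2.67, Cfi, the protease that inactivates C3b, at 2.49, and Cpb2, a carboxypeptidase that protects fibrin from plasmin, at 2.23. Cpn1, the catalytic subunit of carboxypeptidase N, was highest in stomach, at 3.12 for stomach minus esophagus and −1.42 for intestine minus stomach. Of 20 genes compared on a list of other clotting and fibrinolysis genes, 0 were at least 4-fold apart between intestine and stomach, and the median was 0.22. Thbd, the thrombin receptor of endothelium, was lower in intestine than in esophagus (−2.98 log2 units).

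The hepatoblast program was followed through its regulators and enzymes. Of 17 regulators, 0 passed 4-fold over both other organs in intestine, against 1.02% of all genes. The median of intestine minus stomach was 0.26. Intestine was at least 4-fold above esophagus for 4 regulators and at least 4-fold below for 3, against 1.82% and 3.85% of all genes. Stomach was at least 4-fold above esophagus for 4 and below for 0, against 0.684% and 1.58%. Nr5a2, a nuclear receptor of liver and gut, was 2.10 higher and Dlk1, a surface protein of hepatoblasts and of many fetal tissues, 1.20 higher in intestine than in stomach, while Foxa2, a pioneer factor of endoderm, (−2.68) and Lgr5, a receptor in Wnt signalling (−2.17), were lower. Tbx3 read between 2.70 and 2.97 in all organs. Hnf4a, a nuclear receptor of hepatocytes and gut epithelium named here after its values were seen, was higher in intestine than in stomach by 1.07. In esophagus Hnf4a was not well above background, and intestine was higher by a bound of at least 3.50. The summed signal of the 17 regulators, in units of the array's 75th percentile, was 27.2, 29.7 and 45.2 in esophagus, stomach and intestine. Dlk1 alone gave 10.1, 13.3 and 30.6 of these sums, and the other 16 regulators summed to 17.1, 16.4 and 14.6, lowest in intestine. Foxa2, which read 2.82, 2.47 and −0.21, is a large part of that remaining sum. Its low intestine value therefore does not describe the regulators as a group.

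Of 15 hepatocyte enzymes, 3 were at least 4-fold above stomach in intestine, with a median of 0.51. Tdo2, which degrades tryptophan, was 3.67 higher in intestine than in stomach. Asgr2 and Fah were within 2-fold there. The summed signal of the enzymes was 1.20, 1.81 and 4.76 in esophagus, stomach and intestine. The summed signal of the 37 plasma protein and clotting genes was 19.2, 17.4 and 140 in the same order. Without Afp, the brightest gene in it, the sum was 10.9, 14.7 and 91.9, with stomach then above esophagus. Ambp, 4.58-fold above esophagus in stomach, is in that sum. Of 29 genes compared, 20 were lower in stomach than in esophagus and 9 higher. Among all 13737 genes compared, 5219 were lower and 8518 higher. Hpx, F12, Proc and Vtn, counted in the 20, were slightly higher in stomach with normexp correction.

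Marker lists of other endodermal cell types were read on the same arrays, although some of their genes are also expressed elsewhere. Of 9 genes of yolk sac visceral endoderm, 3 were at least 4-fold above stomach in intestine, namely Cubn (3.03), Slc13a4 (2.87) and, as a bound, Amn (2.87), and the summed signal was 5.96, 5.38 and 7.05 in esophagus, stomach and intestine. Dab2, Rhox5 and Cited1 were within 2-fold. Of the 9 intestinal epithelium genes, 7 were at least 4-fold above stomach in intestine, with Lgals2 at 6.68, Isx at 6.23 and Cdx2 at 6.22, and the summed signal was 0.29, 0.88 and 16.7. In the pancreas list (11.5, 6.72 and 4.65) Cpa1 stood at 4.10 and Ptf1a at a bound of 2.10, while Nkx6-1 was lower in intestine (−2.88). The part of hepatic, yolk sac, intestinal or pancreatic cells in the plasma protein signal was not tested.

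Blood, vessel and coelomic genes were also compared between intestine and stomach. None of 11 erythroid, 8 megakaryocyte, 8 macrophage and 8 endothelial genes was at least 4-fold apart there, with medians of 0.92, 0.45, 0.20 and 0.50 log2 units. The embryonic globin genes Hbb-y, Hba-x and Hbb-bh1 stood at −0.73, −0.53 and −0.53 for intestine minus stomach. The erythroid summed signal was 223 for esophagus, 347 for stomach and 228 for intestine. The megakaryocyte sum was 12.4, 5.83 and 7.97, and its list median for stomach minus esophagus was −1.13. The macrophage sums were 4.57, 5.26 and 6.06, the endothelial 13.3, 10.8 and 14.8, and the mesothelial 4.59, 7.87 and 6.93 in the same order. In the mesothelium list 1 of 6 genes was at least 4-fold above stomach in intestine, Upk1b at 2.02, and 1 was below, Msln at −2.87.

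**Figure D4:**
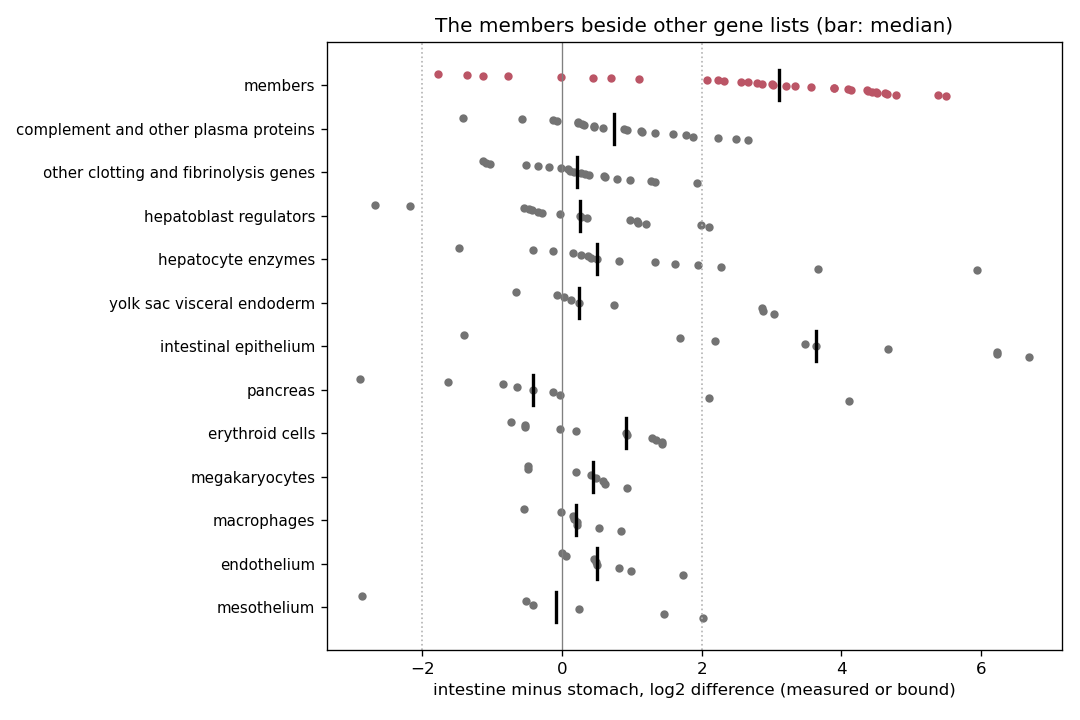
Intestine minus stomach, in log2 units, for the 34 plasma protein and clotting genes that could be compared (top row) and for 12 other gene lists, with 1 point per gene, bounds included, and a bar at each median. The top row has a median of 3.11 and the intestinal epithelium list one of 3.64, and the other lists have medians between −0.41 and 0.92.

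Of the 37 genes, 30 had a promoter in the RefSeq table, and 9 of these held the HNF1 half-site GTTAAT on either strand in the 250 bases before the start, against 7.49% of 27025 genes with a promoter there. The 9 were Alb, Afp, Gc, Cp, Fga, Fgb, F13b, Itih1 and Vtn. In Alb the match began 32 bases before the annotated start, in Fgb 29 and in Fga 43, and in Vtn, Cp and Afp it lay farther out, at 112 bases in Vtn and 194 in Cp. Of the 9 genes, Alb, Afp, Gc, Fga, Fgb and Vtn were among the 25 that intestine held highest, whereas Cp, F13b and Itih1 were dim on every array. F2, F12 and Ahsg, also among the 25, had no match in this window.

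A further 5 short motifs were searched on both strands. CAAAGTC, part of a consensus for HNF4, was in 4 of the 30, against 4.33% of all genes, namely Alb, Ahsg, Hpx and Vtn. TGTTTAC, a forkhead motif, was in 3, against 3.54%, namely Rbp4, F11 and Apoh. TATAAA was in 4, against 14.3%, and CCAAT in 10, against 37.5%. GGGCGG, the GC box common in promoters of widely expressed genes, was in 3, against 35.4%. In these promoters 0 matches of the other motifs overlapped a half-site match. A match is a run of letters and not a shown binding site, and the arrays did not measure binding.

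**Figure D5:**
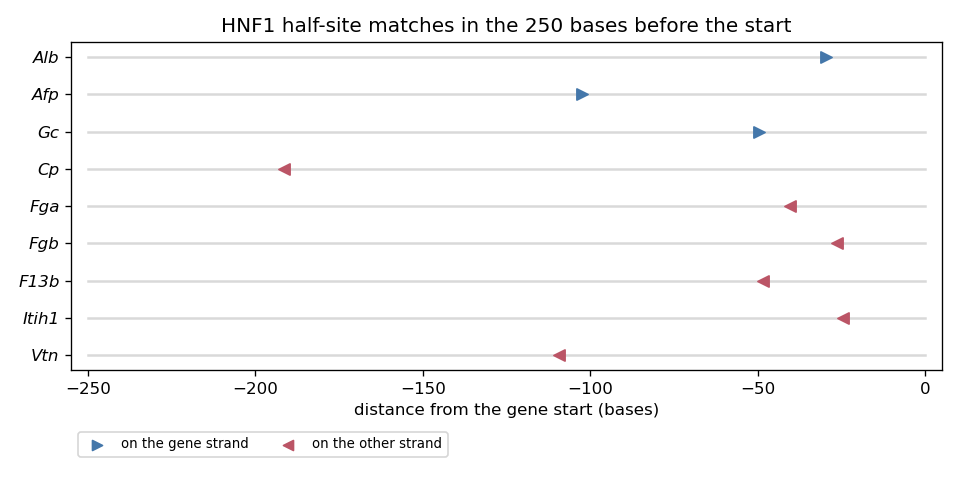
Position of each HNF1 half-site match in the 250 bases before the annotated start of 9 genes, with the distance from the start in bases on the horizontal axis and the direction of the triangle giving the strand. The matches of Alb, Gc, Fga, Fgb, F13b and Itih1 lie between 27 and 52 bases before the start.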

How the data were processed

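The processed signal is a spot intensity from Agilent Feature Extraction 10.5.1.1, background-subtracted and detrended, per the file headers. The deposited log2 table (medians −2.97, −3.17 and −3.47 in esophagus, stomach and intestine) matched these signals minus each array's 75th percentile within 0.01 for at least 99.8% of 41112 probes, after removal of 1 constant per array, and served as an alternative. Here, outlier spots (111, 70 and 77) were left out, and no spot was saturated. Probes were named through unversioned accessions in a RefSeq table of GRCm38.p6 (24342 with 1 symbol, 16770 with none), and a gene's brightest probe by mean represents it. The lowest signal of a probe well above background (7.03, 5.85 and 8.17) was the floor for bounds. Genes without a usable bound were left out, 1 of those listed against esophagus and 2 against stomach.

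Python 3.11.15 and, for normexp with an offset of 50, limma 3.58.1 were used, and the steps were tested on simulated data. With 1 array per organ there was no test between organs. Alternatives changed the background correction, the scaling, the filter on dim probes, the choice of probe and the fold that counts. The genes and lists were chosen with earlier results of these data known. From other lists, genes at least 4-fold apart in any comparison could be named, or, for cell types, the 3 brightest and the 3 most different between intestine and stomach. Some genes of these lists are counted but not reported here by name.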

Additional observations from a re-analysis of the deposited data

How the results depend on the processing

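No paired analysis was possible because each organ has 1 array. With normexp correction, 13 genes were at least 4-fold above esophagus and 13 above stomach in intestine, with medians of 1.48 and 1.65, and the stomach minus esophagus median was −0.0501; the cause was not tested. Median centring gave 3.08 for intestine minus esophagus. With normexp, median centring and quantile normalization 0 genes were at least 4-fold lower in stomach than in esophagus, where Alb had been the 1, and without the filter on dim probes 3 genes passed. With normexp, median centring, quantile normalization and the mean over probes 0 genes lay 4-fold or more below esophagus in intestine, where Serpinc1 had been the 1, and with the mean over probes Serpinc1 turned to 0.60. At 8-fold, 13 genes were above esophagus in intestine and 0 below, and between stomach and esophagus 0 differed either way. At 2-fold, 3 genes were lower in intestine than in esophagus and 3 than in stomach, and 3 were higher and 11 lower in stomach than in esophagus. Other counts of the listed genes stayed within 1.5 times. Of 654 single-gene differences under 7 alternatives, 533 moved by less than the SD between probes and 17 changed sign, of which 15 were smaller than 1 log2 unit at the start and the others were Serpinc1. Median centring moved the median of all genes from 0.15 to 0.35, from 0.13 to 0.62 and from −0.02 to 0.27 for stomach minus esophagus, intestine minus esophagus and intestine minus stomach. The numbers of all genes at least 4-fold higher and lower were 94 and 217, 253 and 535, and 198 and 178, and with median centring 125 and 176, 455 and 296, and 255 and 115. Quantile normalization gave 370 and 367 for intestine minus esophagus and 229 and 129 for intestine minus stomach. Normexp correction gave 28 and 59, 93 and 215, and 50 and 61, and no filter on dim probes gave 184 and 350, 396 and 708, and 306 and 289. With genes well above background on all 3 arrays, chosen after seeing the data, the medians were −0.48, 2.58 and 3.11. Leaving out Ahsp was not run, since it has no probe. Dim probes limit the bounds.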
